A study of Mus musculus with 6 samples.

Results

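Toll-like receptors (TLRs) are the sensors with which macrophages detect microbial molecules. TLR2, alone or paired with TLR1 or TLR6, sits at the cell surface and binds bacterial lipoproteins, while TLR4 binds lipopolysaccharide together with MD-2, the product of Ly96, after CD14 has handed the ligand over. TLR7, TLR8, TLR9 and TLR13 sit in endosomes and sense nucleic acids. The peaks described here were those of 10 genes, Tlr1, Tlr2, Tlr4, Tlr6, Tlr7, Tlr8, Tlr9, Tlr13, Cd14 and Ly96, and were chosen by 1 rule, that the deposited annotation gives the gene as the one with the nearest transcription start site (TSS). This rule found 225 of the 134964 peaks in 6 chromatin immunoprecipitation sequencing (ChIP-seq) lists, and every gene had at least 1 peak.

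The cells were wild-type mouse bone marrow-derived macrophages (BMDMs), grown from marrow of mice aged 8 to 12 weeks for 6 days in L929 supernatant, a source of macrophage colony-stimulating factor. They were left without IL-4 (control) or given 20 ng/ml IL-4 for 1 h. After double crosslinking (DSG, then formaldehyde), chromatin bound by C/EBPα, by IRF8 or by JUNB was immunoprecipitated. The 3 proteins are lineage-determining transcription factors, that is, factors that occupy macrophage enhancers before a signal arrives: C/EBPα is a basic leucine zipper protein of the myeloid lineage, IRF8 an interferon regulatory factor that often binds DNA with PU.1, and JUNB a subunit of AP-1. IL-4 signals through STAT6, and the comparison is of the binding of each factor before and 1 h after the cytokine. Each antibody was used on 1 sample of each condition, hence no value has a replicate, the spread within a condition is unknown and no test was made. The read number and the library kit of each sample are not given in the sources used here, so a difference between 2 lists cannot be told apart from a difference in depth, kit or background.

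The 10 genes had 43 of the 24486 C/EBPα peaks in control and 51 of the 24612 after IL-4. They had 59 of 37525 and 63 of 42076 IRF8 peaks, and 5 of 3940 and 4 of 2325 JUNB peaks, in the same order. Of 8 macrophage marker genes, all 8 had C/EBPα and IRF8 peaks in both conditions, and 6 and 3 had a JUNB peak in control and after IL-4. Of 6 genes that mark other cell types, 2 or 3 had a C/EBPα or IRF8 peak in any 1 list, and 1 and 0 had a JUNB peak. A peak near a gene does not measure its expression, and in a bulk sample more bound cells and more binding per cell cannot be told apart. No unit is stated for the peak score. It was read as a measure of significance that grows with enrichment and with depth, so scores were compared mainly within a factor, and beside the same quantity over the whole list.

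The 10 genes carried peaks with a higher median score than their lists for C/EBPα and IRF8, and not for JUNB. The median score at the genes was 21.3 in C/EBPα control, against 11.2 over the list, and 18.3 after IL-4, against 11.2. For IRF8 it was 16.9 against 10.3 in control and 15.1 against 9.61 after IL-4. For JUNB it was 7.11 against 7.88 and 5.74 against 6.21. The IRF8 peak at the 3′ end of Tlr4 ranked 27 of 37525 in control and 88 of 42076 after IL-4, which was the highest rank of any peak of the 10 genes.

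Most of the peaks lay away from promoters, as did those of the whole lists. Of the 225, 146 were annotated as intergenic, 47 as intronic, 26 as promoter (within the window around the start site that the annotation calls promoter-TSS) and 6 as the end of a transcript. In the 6 whole lists, 42.0% to 50.6% of the peaks were intergenic and 43.3% to 46.2% intronic, so these classes were nearer in size there than at the genes. Promoter peaks made up 2.79% to 9.16% of a list and transcript ends 1.17% to 1.45%, in each case less than their share of the 225. The nearest was 2 bp and the farthest 645423 bp from the annotated TSS, and 136 were within 20000 bp. All 15 peaks beyond 100000 bp belonged to Tlr4 (11 peaks) and Ly96 (4 peaks). The annotated transcript of Tlr4 ends near +15649 bp, whereas the GENCODE vM21 gene body is 102701 bp long (chr4:66827584-66930284, mm10), so 5 of the 17 intergenic regions of Tlr4 were inside that gene body. No other member had such a region.

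**Figure D1:**
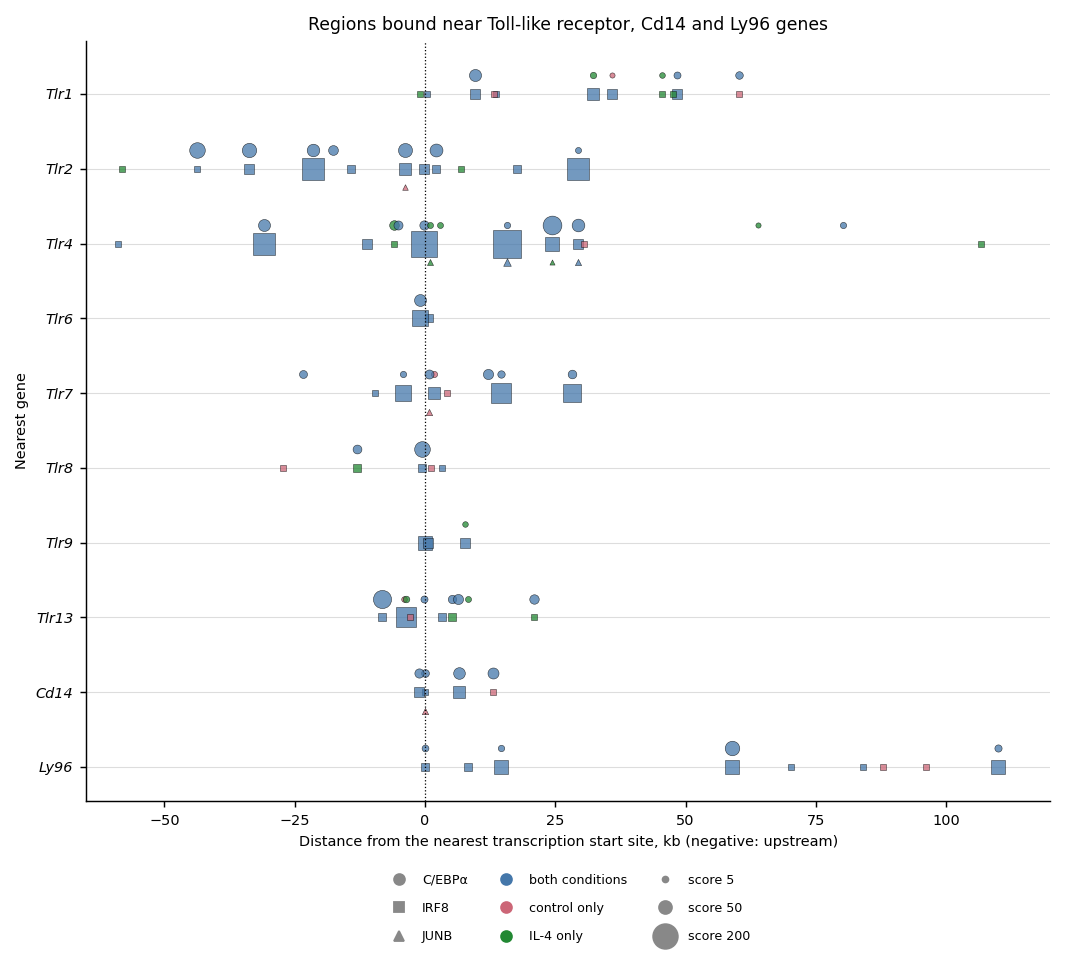
Regions with a peak near each of the 10 genes, with the deposited distance from the nearest TSS in kb on the horizontal axis and 1 row per gene. Shape gives the factor, marker area the higher of the 2 condition scores, and colour whether the factor had a peak in both conditions, in control only or after IL-4 only; 7 markers beyond 120 kb, all of Tlr4, are not drawn. The markers at Tlr2 and Tlr4 include the highest IRF8 scores, and JUNB markers occur at Tlr2, Tlr4, Tlr7 and Cd14 only.

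Overlapping peaks of the 6 lists were merged, and the 225 peaks gave 86 regions. In control, C/EBPα and IRF8 shared 30 of these 86 (34.9%), against 23.3% of all 60847 regions, and after IL-4 they shared 35 (40.7%), against 24.3%. All 3 factors met at 4 regions in control (4.65%, against 4.19%) and at 3 after IL-4 (3.49%, against 2.61%). Regions in all 6 lists numbered 2 (2.33%, against 1.63%), and both belonged to Tlr4. Each of the 7 regions with a JUNB peak also held C/EBPα in at least 1 condition. Most JUNB regions did so over the genome too. Of all 4807, 717 had IRF8 but no C/EBPα, and 454 had JUNB alone.

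The sequences under some of the regions were read from the GRCm38 (mm10) RefSeq genome. In each line the motif match is in capitals and the strand is that of the match, 5′ to 3′. The motifs were searched on both strands in 200 bp around the centre of the highest peak. The ETS-IRF composite element, which PU.1 and IRF8 can bind together, was spelled GGAANNGAA. Other regions with strong IRF8 peaks held no such match, among them Tlr4 +15649, Tlr4 -109 and Tlr13 -3554, with IRF8 scores of 247, 180 and 136 in control. The composite was present at the pair of Tlr2 enhancer regions with the highest IRF8 scores at that gene and at the upstream Tlr4 region. These are shown because they are among the strongest IRF8 peaks of the set that hold it.
Tlr2 +29403 (chr3:83812132-83812161, plus strand): aggaacaaaaGGAAGTGAAactacttcttc
Tlr2 -21542 (chr3:83863148-83863177, plus strand): ttcagttttaGGAAATGAAagtggcaagct
Tlr4 -30917 (chr4:66796887-66796916, plus strand): taacagttgaGGAAATGAAagcaaatgctc
AP-1 sites were spelled TGAGTCA or TGACTCA. The Tlr4 regions below are shown because, by the nearest-TSS rule, Tlr4 was the only one of the 10 genes with a JUNB peak after IL-4. Of its 4 JUNB regions, 3 held such a match.
Tlr4 +1024 (chr4:66828827-66828856, plus strand): aatctgacccaTGACTCAttcttgttttcc
Tlr4 +15649 (chr4:66843498-66843527, plus strand): aacttaaaccaTGAGTCAttaagaaaatac
Tlr4 +29426 (chr4:66857204-66857233, plus strand): atatgactagcTGACTCAtgttcttgctgc
C/EBP sites were spelled TTNCNNAA and STAT6-type sites as TTC and GAA with 3 or 4 bases between them. The next 4 lines show regions with the largest C/EBPα scores after IL-4 or with C/EBPα peaks in the IL-4 list only. A C/EBP and a STAT6-type match can overlap. Each of these 4 windows held both kinds of match, and only 1 match is printed for each.
Tlr4 -5857, STAT6-type (chr4:66821948-66821977, plus strand): atcagactatTTCTAAGAAtatgccctcag
Tlr4 +24400, STAT6-type (chr4:66852137-66852166, plus strand): ctataaagatTTCCTGGGAAttgagtaact
Tlr4 +562954, C/EBP (chr4:67390734-67390763, plus strand): aattggtaaaaTTACACAAatatgtatttc
Tlr13 -8201, C/EBP (chrX:106135031-106135060, minus strand): tttcaaatctcTTGCAAAAtgagttatgtg

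Over the 86 regions, the C/EBP motif was in 57 (66.3%, Wilson 95% interval 55.8% to 75.4%), against 52.3% of all regions, and the ETS-IRF composite in 22 (25.6%, 17.5% to 35.7%), against 16.7%. The AP-1 site was in 9 (10.5%, 5.6% to 18.7%), against 11.0%. An ISRE-like element, GAAANNGAA, which interferon regulatory factors can bind, was in 8.14%, against 13.5%, and the STAT6-type site in 19.8%, against 14.5%. Among the 7 regions with a JUNB peak, 3 held an AP-1 site (42.9%), against 39.7% of all JUNB regions, and 6 of the 79 without JUNB did (7.59%, against 8.51%). The C/EBP motif was in 40 of the 53 regions with C/EBPα (75.5%, against 66.3%) and in 17 of the 33 without (51.5%, against 39.1%). The composite was in 19 of the 72 regions with IRF8 (26.4%, against 19.1%) and in 3 of the 14 without (21.4%, against 5.96%). The median GC content of the windows was 41.2% at the genes, against 46.0%, and its part in these shares was not tested. Of the 15 regions with an IRF8 score of at least 50, 7 held the composite (46.7%, against 41.1% of all such regions) and 14 also had C/EBPα (93.3%, against 67.7%). A match is a description of the letters in the window, and a missing match says nothing about the factor.

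The question of the comparison between conditions is which peaks of a factor were present in both. A peak counted as shared when it overlapped a peak of the other condition by at least 1 bp, as control-only or IL-4-only otherwise. At the 10 genes, 40 of 43 C/EBPα control peaks were also in the IL-4 list (93.0%, Wilson 95% interval 81.4% to 97.6%), against 78.6% of the list. For IRF8 it was 49 of 59 (83.1%, 71.5% to 90.5%), against 78.6%, and for JUNB 2 of 5 (40.0%, 11.8% to 76.9%), against 35.8%. The intervals treat peaks as independent and cover counting error within 1 pair of samples only. The shares of the genes and of the lists are not matched for score. Hence 3 C/EBPα peaks were control-only (21.4% of the list was), 10 IRF8 peaks (21.4% of the list) and 3 JUNB peaks (64.2% of the list). IL-4-only peaks numbered 11 of 51 for C/EBPα, against 22.0% of the list, 14 of 63 for IRF8, against 30.4%, and 2 of 4 for JUNB, against 39.2%.

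The score of a peak went with its being shared, at the genes and over the lists. All 31 C/EBPα and all 36 IRF8 control peaks of the genes with a score of at least 10 had an IL-4 peak, against 96.2% and 96.5% of all control peaks of that score. Below a score of 5, 2 of 4 C/EBPα and 5 of 10 IRF8 control peaks had one, against 42.8% and 46.5%. The 3 control-only C/EBPα peaks scored 2.56 to 6.37 and the 10 control-only IRF8 peaks 2.21 to 6.43. Among IL-4-only peaks, 4 scored at least 10, and they were the C/EBPα peaks at Tlr4 -5857 and +562954 and the IRF8 peaks at Tlr8 -12971 and Tlr13 +5141.

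**Figure D2:**
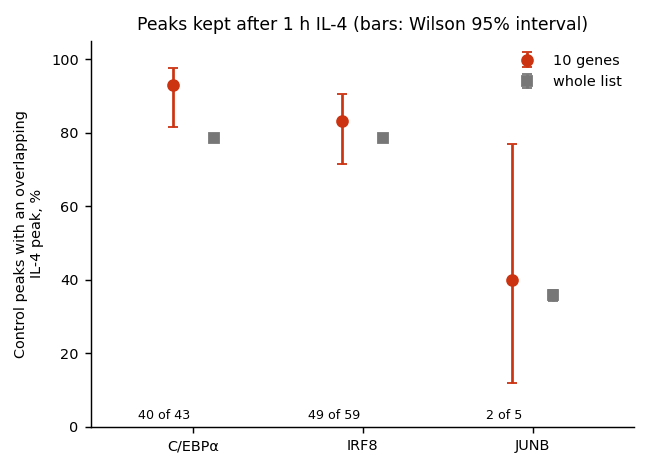
Share of control peaks that overlapped an IL-4 peak of the same factor, in percent, for the 10 genes (circles) and for the whole list (squares), with Wilson 95% intervals. The circle for C/EBPα, at 93.0%, has an interval above the list's 78.6%, while the intervals for IRF8 and JUNB span the list's share. The shares are not matched for score. Of the 43 C/EBPα control peaks of the genes, 31 scored at least 10, against 13352 of the 24486 in the list, and 96.2% of the list's peaks of that score were shared.

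Scores of the shared peaks were spread on both sides of no difference. Among 40 C/EBPα pairs, the median log2 ratio of the IL-4 score to the control score was 0.01 (95% order-statistic interval -0.27 to 0.35, SD over pairs 0.65), against -0.004 over all pairs. Among 49 IRF8 pairs it was 0.03 (-0.07 to 0.20, SD 0.70), against 0.08. By at least 1.5-fold, 9 C/EBPα pairs were higher after IL-4 (17.7% of all pairs were) and 4 were lower (17.8%), and 9 IRF8 pairs were higher (23.6%) and 9 lower (17.5%). Of the 2 JUNB pairs, 0 were higher by that fold (9.60% of all pairs were) and 1 was lower (47.9%). At the 26 regions where C/EBPα and IRF8 were both kept, the scores of both were higher at 7, both lower at 7, and in opposite directions at 12, so that 53.8% had the same direction, against 56.0% of 10821 regions over the genome.

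**Figure D3:**
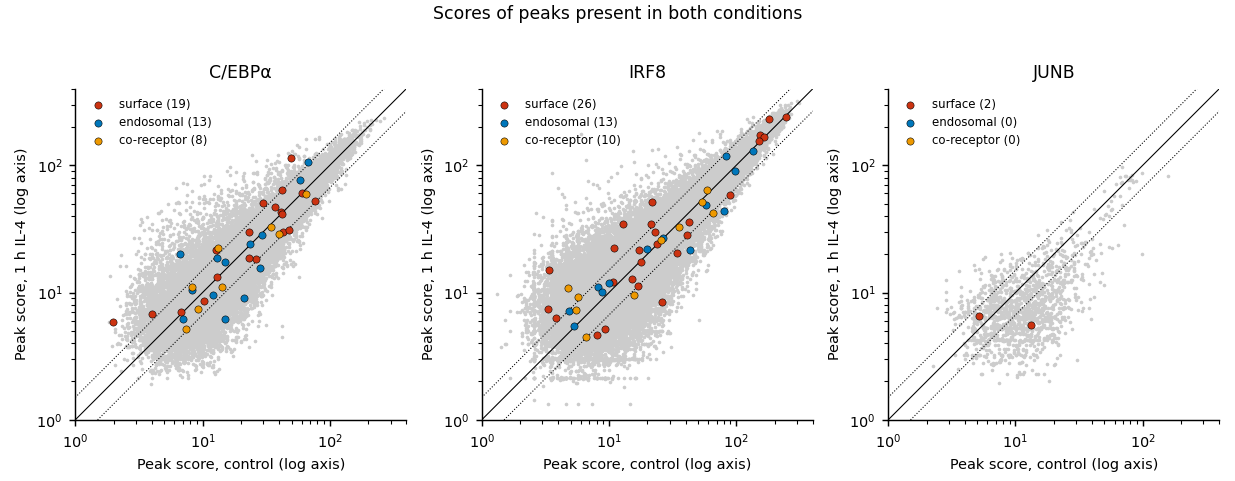
Peak score in control (horizontal) and after 1 h IL-4 (vertical), both on log axes, for peaks present in both conditions, with 1 panel per factor. Coloured points are peaks of the 10 genes, by receptor group with the number of pairs in brackets, grey points are all pairs, the solid line marks equal scores and the dotted lines a 1.5-fold difference; of the coloured points, 9 C/EBPα and 9 IRF8 points lie at or above the upper dotted line and 4 and 9 at or below the lower.

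Tlr4, the lipopolysaccharide receptor, had the most peaks of the 10 genes, 52 of the 225 (23.1%). It had 8 C/EBPα peaks in control and 14 after IL-4, 10 and 14 IRF8 peaks, and 2 and 4 JUNB peaks. Of the 14, 1 IL-4-only C/EBPα peak, at +117 bp with a score of 3.48, was a second, separate call inside the promoter region, where C/EBPα was present in both conditions. The other 9 genes together had 35 and 37 C/EBPα peaks, 49 and 49 IRF8 peaks, and 3 and 0 JUNB peaks. Tlr4 had more peaks of all 3 factors after IL-4, and Tlr7 had 1 fewer of each. Of the 9319 genes named in the C/EBPα IL-4 list, 98.9% had fewer peaks there than the 14 of Tlr4, and 11 of its 52 peaks lay beyond 100000 bp, of which 1 C/EBPα and 4 IRF8 peaks were IL-4-only.

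The highest IRF8 scores at Tlr4 were close between conditions. At the end of the annotated transcript, +15649 bp from the TSS (chr4:66843245-66843694), IRF8 scored 247 in control and 239 after IL-4, C/EBPα 6.79 and 7.01, and JUNB 13.2 and 5.58. At the promoter (-109 bp, chr4:66827337-66828014), IRF8 scored 180 and 230, C/EBPα 23.1 and 18.8, and JUNB had no peak. At -30917 bp (chr4:66796703-66797096, intergenic), IRF8 scored 150 and 156 and C/EBPα 42.6 and 30.1. So IRF8 was within 1.5-fold at all 3 regions, and the JUNB score at the transcript end was 2.37-fold lower after IL-4. The promoter and the transcript end held no ETS-IRF composite in the window, in contrast to the -30917 region.

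A pair of neighbouring regions past the annotated transcript end, inside the GENCODE gene body and 5026 bp apart, differed in opposite directions for C/EBPα and IRF8, but not for JUNB. At +24400 bp (chr4:66851922-66852461), C/EBPα scored 49.4 in control and 114 after IL-4, a 2.30-fold higher value that was the highest C/EBPα score of the 10 genes in either list. IRF8 scored 21.8 and 51.4 there, 2.35-fold higher, and JUNB had no peak in control and a score of 2.30 after IL-4. At +29426 bp (chr4:66857064-66857440), on an MTEa long terminal repeat, C/EBPα scored 48.2 and 31.1, 1.55-fold lower, and IRF8 scored 26.3 and 8.35, 3.15-fold lower. JUNB scored 5.15 and 6.51 at this region, which was 1 of the 2 in all 6 lists. The +24400 region held 3 C/EBP matches and the STAT6-type match printed above, which abuts 1 of them, and no AP-1 site, whereas the +29426 region held 2 AP-1 sites and 1 C/EBP match.

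Tlr4 also had the IL-4-only peaks with the highest C/EBPα scores. At -5857 bp (chr4:66821810-66822098), C/EBPα scored 25.3 and IRF8 6.03 after IL-4, with no peak of either in control. The region 686 bp downstream of it, at -5171 bp, had C/EBPα in both conditions, at 12.9 and 21.5. In the first intron, +1024 bp (chr4:66828756-66829075), C/EBPα scored 5.85 and JUNB 5.89 after IL-4 only. At +562954 bp (chr4:67390611-67390958), C/EBPα scored 31.8 after IL-4 with no control peak, and IRF8 scored 3.36 in control and 15.1 after IL-4, 4.49-fold higher. That region is assigned to Tlr4 only because no annotated TSS is nearer.

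The smaller regions of Tlr4 followed no single direction. IRF8 at -11066 bp scored 10.9 and 22.3, and at -58903 bp 8.04 and 4.66. C/EBPα was IL-4-only at +2935 bp (5.59) and +63977 bp (2.72), and IRF8 was IL-4-only at 4 regions between +106734 and +590809 bp, with scores of 2.14 to 7.13. IRF8 was control-only at +30536 bp (3.31). Of 14929 other genes with a peak in at least 1 list (a missing peak counted as a score of 0), the one whose highest scores were most like those of Tlr4 was Rybp, at a Euclidean distance of 0.69 in log2(score + 1) over the 6 lists. None of the other 9 members had a peak in all 6 lists, and no likeness was computed for them.

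**Figure D4:**
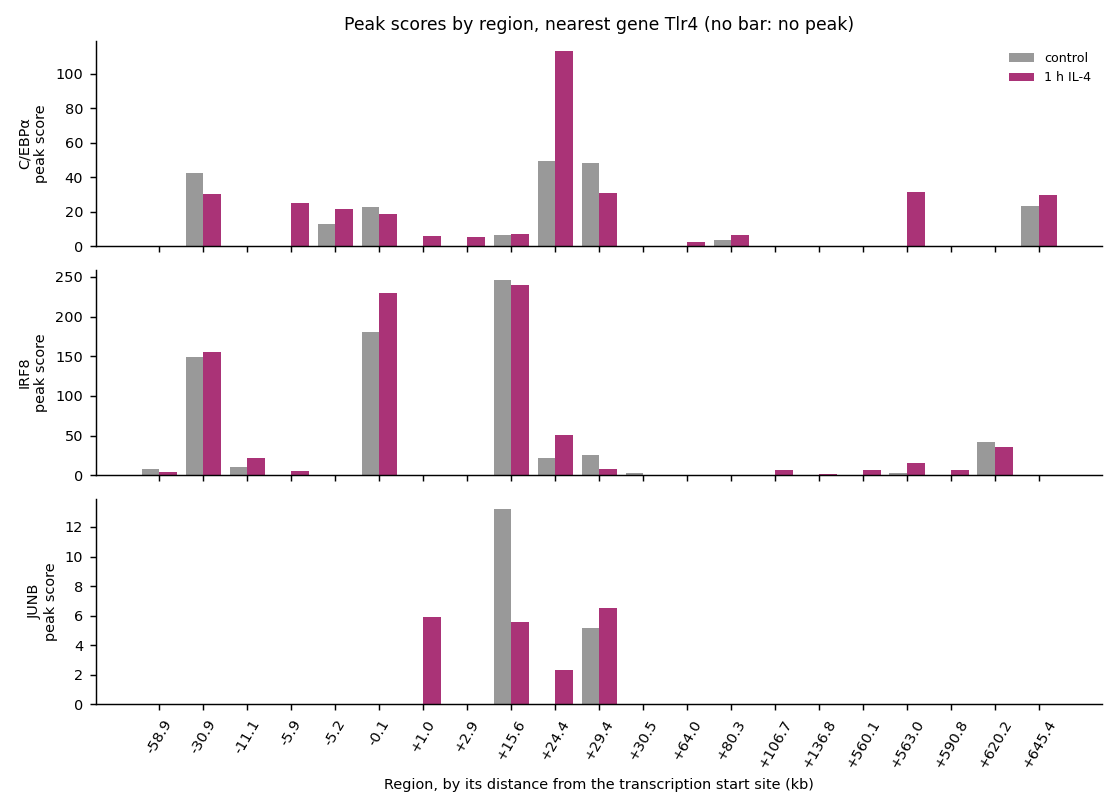
Peak scores at the 21 regions of Tlr4, ordered by distance from the TSS in kb (regions are not spaced to scale), with 1 panel per factor and bars for control (grey) and 1 h IL-4 (purple). The IRF8 bars near -30.9, -0.1 and +15.6 kb are of like height in both conditions, the C/EBPα bar near +24.4 kb is 114 after IL-4 and 49.4 in control, and the 4 JUNB regions lie between +1.0 and +29.4 kb.

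Tlr2, the lipoprotein receptor, had 7 C/EBPα peaks in each condition, all shared, and 9 IRF8 peaks in control, all shared, with 11 after IL-4. Its IRF8 binding was strongest at regions on either side of the gene. At +29403 bp (chr3:83811882-83812538, intergenic), IRF8 scored 153 and 172 and C/EBPα 1.99 and 5.92, 2.97-fold higher from the lowest C/EBPα score of any shared control peak of the genes. At -21542 bp (chr3:83862919-83863356), IRF8 scored 165 and 167 and C/EBPα 37.0 and 47.0. Both regions overlap amplicons that the study designed for enhancer RNA of Tlr2, which were located by exact match of their primers, at chr3:83812272-83812351 and chr3:83863328-83863399. At the second amplicon only the IRF8 peaks reached the amplified bases.

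Of the other 10 regions at Tlr2, 5 had a C/EBPα peak, and the other 5 had IRF8 alone. At -43770 bp C/EBPα scored 76.3 in control, its highest control score at the 10 genes, and 52.3 after IL-4, with IRF8 at 9.27 and 5.17. At -3844 bp (chr3:83845163-83845682) it scored 60.4 and 60.5, IRF8 41.1 and 28.2, and JUNB 4.09 in control with no peak after IL-4. At +2045 bp, in the second intron, C/EBPα scored 29.6 and 50.3, 1.70-fold higher, and IRF8 15.1 and 12.7. At -33670 bp C/EBPα scored 41.9 and 63.9. Among the regions with IRF8 alone, the promoter (-129 bp) had scores of 21.3 and 34.5, the +17686 region 17.8 and 17.3, and the -14263 region 16.9 and 11.3. The 2 IL-4-only IRF8 peaks, at +6851 and -58028 bp, scored 3.75 and 3.02, so the gain in peak number at Tlr2 came from peaks of low score.

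**Figure D5:**
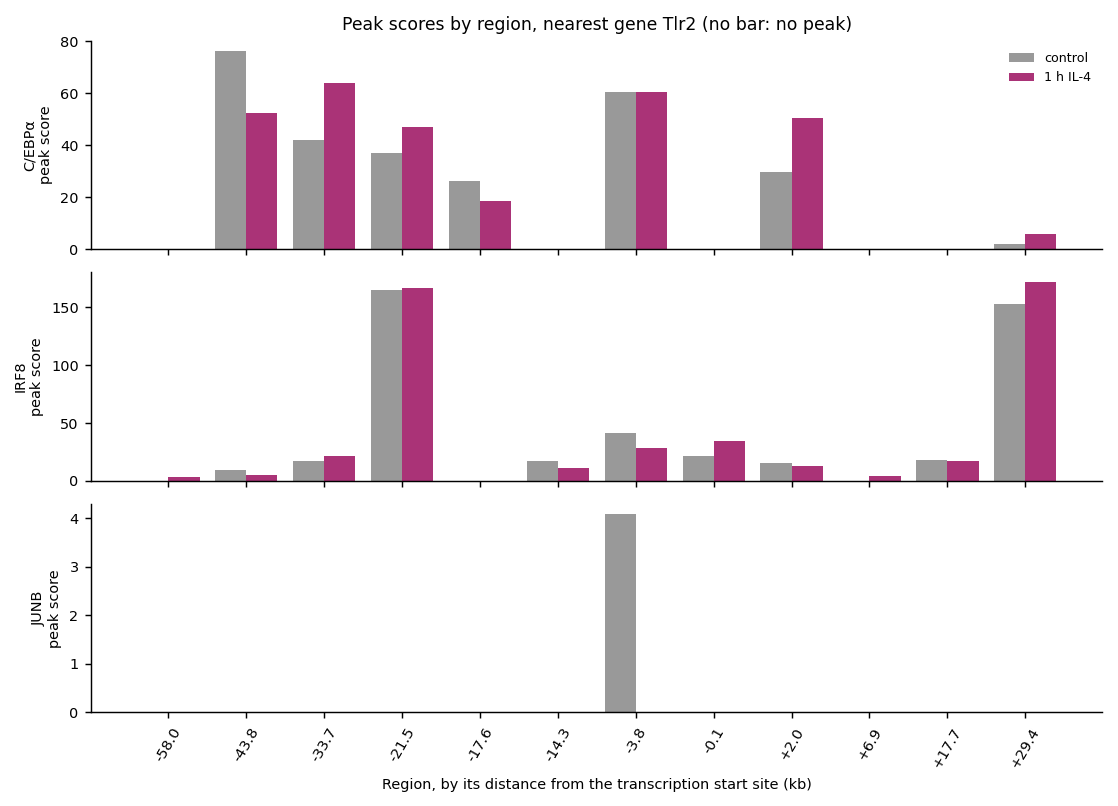
Peak scores at the 12 regions of Tlr2, ordered by distance from the TSS in kb (regions are not spaced to scale), with 1 panel per factor and bars for control (grey) and 1 h IL-4 (purple). The IRF8 bars near -21.5 and +29.4 kb reach 153 to 172 in both conditions, and the single JUNB bar, 4.09 in control, is near -3.8 kb.

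Tlr1 and Tlr6, the partners of TLR2, are neighbours on chromosome 5. Tlr1 had 4 and 5 C/EBPα peaks and 8 and 9 IRF8 peaks. Its highest region (+9527 bp) had C/EBPα at 41.5 and 43.3 and IRF8 at 34.4 and 20.4. At +32253 bp IRF8 scored 12.9 and 34.6, 2.69-fold higher, and C/EBPα was IL-4-only at 7.50, and at +45472 bp C/EBPα (4.49) and IRF8 (6.99) were both IL-4-only. The Tlr1 promoter (-886 bp) had an IL-4-only IRF8 peak at 4.47. Control-only at Tlr1 were IRF8 at +60257 bp (5.71) and +13283 bp (4.66) and C/EBPα at +35890 bp (2.56). Tlr6 had 1 C/EBPα peak in each condition, and 2 IRF8 peaks in control and 3 after IL-4. At its promoter region (-911 bp, chr5:64960719-64961693), C/EBPα scored 41.9 and 41.1 and IRF8 88.8 and 58.7, 1.51-fold lower, and the third IRF8 peak was a second, separate call inside this same region.

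Among the endosomal receptors, Tlr7, a sensor of single-stranded RNA, had 7 and 6 C/EBPα peaks, 6 and 5 IRF8 peaks and 1 and 0 JUNB peaks. IRF8 was strongest at +28195 bp, with 97.1 and 89.8, and in the second intron at +14548 bp, with 83.3 and 118. Lower IRF8 scores after IL-4 were seen at +1808 bp (43.0 and 21.6, 1.99-fold) and at -4276 bp (80.0 and 43.5, 1.84-fold). The JUNB peak lay at +711 bp in the second intron, with a score of 7.11 in control only, and C/EBPα scored 21.3 and 9.05 there, 2.35-fold lower. Of the 6 C/EBPα pairs at Tlr7, 5 were lower after IL-4.

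Tlr8, the neighbour of Tlr7 on the X chromosome, had its highest peak at the promoter (-530 bp, chrX:167264102-167264534), where C/EBPα scored 58.1 and 77.2 and IRF8 8.15 and 11.1. This window held 7 C/EBP matches, of which 2 are the same bases read on the opposite strands. At -12971 bp C/EBPα scored 6.67 and 19.9, 2.99-fold higher, and IRF8 had a peak after IL-4 only, at 19.6, the highest score of any IL-4-only IRF8 peak at the 10 genes. In all, Tlr8 had 2 and 2 C/EBPα peaks and 4 and 3 IRF8 peaks, and both C/EBPα and both IRF8 pairs were higher after IL-4. The other 2 IRF8 control peaks, at +1222 bp (2.21) and -27274 bp (4.61), were control-only.

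By the nearest-TSS rule, Tlr9, a sensor of unmethylated CpG DNA, was the gene with no C/EBPα peak in control. It had 1 after IL-4, at +7700 bp, with a score of 4.16. Within 20000 bp of the Tlr9 gene body, 2 further C/EBPα peaks in each condition carried the name of another gene, Alas1. The 3 IRF8 peaks of Tlr9 were present in both conditions, with 58.2 and 48.9 at the promoter (-41 bp, chr9:106222291-106222823), 26.5 and 26.6 at +599 bp in the intron, and 19.8 and 22.1 at +7700 bp. All were within 1.5-fold.

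Tlr13, a sensor of bacterial ribosomal RNA, had 6 and 7 C/EBPα peaks and 4 and 5 IRF8 peaks. Upstream of the gene, at -8201 bp (chrX:106134880-106135269, on an MLT2F repeat), C/EBPα scored 67.2 and 106, 1.58-fold higher, and IRF8 8.80 and 10.1. At -3554 bp (chrX:106139449-106139966), IRF8 scored 136 and 129, and C/EBPα had an IL-4-only peak at 8.32. A control-only C/EBPα peak (4.07) lay 419 bp from that region's centre. The promoter (-91 bp) had C/EBPα alone, at 8.24 and 10.5. IRF8 was IL-4-only at +5141 bp (10.2) and +20962 bp (8.88), at regions where C/EBPα was present in both conditions.

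Of the co-receptor genes' 8 C/EBPα and 10 IRF8 peaks after IL-4, none was IL-4-only, while 22.0% and 30.4% of those lists were. No JUNB peak after IL-4 was named for these genes, so none could be IL-4-only. Cd14 (chromosome 18) had 4 and 4 C/EBPα peaks, 4 and 3 IRF8 peaks, and 1 and 0 JUNB peaks. At its promoter (-54 bp, chr18:36726531-36726941), C/EBPα scored 14.1 and 11.1, IRF8 5.46 and 7.24, and JUNB 7.37 in control only. At +6458 bp C/EBPα scored 39.9 and 28.7 and IRF8 35.7 and 32.9, and at -1134 bp C/EBPα scored 13.2 and 22.6, 1.71-fold higher, and IRF8 25.8 and 26.1. At +13079 bp C/EBPα scored 34.8 and 32.8, and IRF8 had a control-only peak at 5.95. Of the 4 C/EBPα pairs at Cd14, 3 were lower after IL-4. Within 20000 bp of the Cd14 gene body, 1 further JUNB peak in each condition carried the name E230025N22Rik.

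Ly96, which encodes the subunit of the TLR4 complex that holds lipopolysaccharide, had 4 and 4 C/EBPα peaks and 9 and 7 IRF8 peaks. At +58965 bp (chr1:16747235-16747734) C/EBPα scored 65.4 and 59.9 and IRF8 65.3 and 41.9, 1.56-fold lower. In the third intron (+14539 bp) IRF8 scored 59.3 and 64.0 and C/EBPα 7.39 and 5.21, and at +109851 bp IRF8 scored 53.4 and 51.9. The promoter (-6 bp) had C/EBPα at 9.27 and 7.43 and IRF8 at 15.6 and 9.61, 1.63-fold lower. The 2 control-only IRF8 peaks, at +87877 and +96164 bp, scored 6.43 and 4.61 and lay on repeats.

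By receptor group, the surface receptors (Tlr1, Tlr2, Tlr4 and Tlr6) kept 95% of their C/EBPα and 89.7% of their IRF8 control peaks, the endosomal receptors 86.7% and 76.5%, and the co-receptors kept all 8 C/EBPα peaks and 76.9% of the IRF8 peaks, against 78.6% of either whole list. Of the surface receptors' peaks after IL-4, 8 of 27 for C/EBPα and 11 of 37 for IRF8 were IL-4-only, of the endosomal receptors' 3 of 16 and 3 of 16, and of the co-receptors' 0 of 8 and 0 of 10, against 22.0% of the C/EBPα and 30.4% of the IRF8 list. Of the surface receptors' IL-4-only peaks, Tlr4 had 6 of the 8 for C/EBPα, 5 of the 11 for IRF8 and both of those for JUNB. Its 6 include the second call inside the promoter region. The differences between the groups were not tested.

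For the rest of the pathway, 34 further genes were taken, among them other TLRs, adaptors such as Myd88 and Ticam1, kinases, chaperones and negative regulators. Of these, 31 had a peak. Their control peaks were kept at 81.2% for C/EBPα (117 peaks), 81.0% for IRF8 (168 peaks) and 41.7% for JUNB (24 peaks), beside the 93.0%, 83.1% and 40.0% at the 10 genes and the 78.6%, 78.6% and 35.8% over the whole lists. Myd88, the adaptor most TLRs signal through, had 1 C/EBPα and 2 IRF8 peaks in each condition, all shared, and 1 JUNB peak after IL-4 only. Unc93b1, which carries the endosomal TLRs to their compartment, had no C/EBPα peak, and 1 and 2 IRF8 peaks. Cd180, a relative of TLR4 that pairs with the product of Ly86, had 17 and 17 C/EBPα, 24 and 20 IRF8, and 4 and 1 JUNB peaks.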

How the data were processed

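The 6 peak lists were analysed, 1 per antibody (C/EBPα, IRF8, JUNB) and condition. Per the labels, the authors aligned reads to mm10, and the submitters' processing notes name BWA 0.7.10, SAMtools 0.1.19, HOMER 4.2 and MACS2 2.0.10. Peaks were called per sample, and blacklisted regions were removed according to the study's methods. The deposited peak score, gene name, distance to TSS and annotation were used as given. The score has no stated unit, and depth is unknown.

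The 10 genes and the pathway and marker lists were chosen with earlier results of these data known. Genes were matched by the deposited gene name. Peaks of 2 conditions were shared at an overlap of at least 1 bp, and shared peaks were paired one-to-one for log2 ratios. Touching or overlapping peaks from any list formed 1 region, scored in each list by its highest peak. Shares carry Wilson 95% intervals. Named in full were promoter regions, the highest-scoring regions per factor, regions with JUNB and regions that differed in 2 or more factors; the other regions of these genes were added after their values were seen. With 1 sample per group, no test was made. Alternatives changed the overlap, score limit, list length, peak width, distance and genes included. Scripts ran in Python 3.11.15 with pandas 2.3.3 and passed 10 of 10 checks on simulated data. Coordinates are mm10. Gene bodies came from GENCODE vM21, and sequence from the GRCm38 RefSeq genome. No sequence is shown for chromosome 18.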

Additional observations from a re-analysis of the deposited data

Results flagged for a closer look

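The number of peaks at the 10 genes after IL-4, divided by that in control, was 1.19 (C/EBPα), 1.07 (IRF8) and 0.80 (JUNB), so that JUNB differed in direction from the other factors. The difference between the factors was not tested, since each ratio comes from 1 pair of samples. The JUNB ratio rests on 5 control peaks and 4 IL-4 peaks. The whole lists differed in the same directions. From control to IL-4, the JUNB list went from 3940 to 2325 peaks, the IRF8 list from 37525 to 42076, the C/EBPα list from 24486 to 24612. With Tlr4 left out, the genes' peak number went from 35 to 37 (C/EBPα), stayed at 49 (IRF8) and fell from 3 to 0 (JUNB). The depth of these libraries is unknown, so the part of depth in this result was not tested.

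An amplicon that the study designed for an enhancer RNA of Cd14 (chr18:36700378-36700500) overlapped 3 peaks that the comparisons above do not hold, since the nearest annotated gene is E230025N22Rik. Over the amplified bases, C/EBPα had a peak in control, with a score of 9.35, and none after IL-4. IRF8 scored 16.1 in control and 22.4 after IL-4. Only peaks that reach the amplified bases were counted. A C/EBPα peak beside them after IL-4 was not looked for, so a loss at the enhancer is not shown.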

How the results depend on the processing

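Without Tlr4, the share of JUNB control peaks kept was 0% (0 of 3), JUNB peaks numbered 3 in control and 0 after IL-4 with 0 IL-4-only, IL-4-only peaks were 5 for C/EBPα and 9 for IRF8, and regions with all factors were 2 in control and 0 after IL-4. Within 20000 bp of the gene bodies, 9 IRF8 peaks were IL-4-only. With a score of at least 5, control-only C/EBPα peaks were 1 and IL-4-only JUNB peaks 1. With lists cut to equal length by rank, JUNB had 3 peaks in control, and its 1 pair had a log2 ratio of -1.25. Of 18 alternative values of the share kept, 17 fell inside the reported interval, as did 19 of 20 score ratios. Some alternatives returned the reported value unchanged. For JUNB the interval of the share runs from 11.8% to 76.9% and that of the ratio comes from 2 pairs, so falling inside them says little. Of the counts, 17 of 18 control-only, 13 of 18 IL-4-only and 27 of 30 peak numbers, and 6 of 8 counts of regions with all factors, stayed within 1.5 times. No paired analysis was possible because each group has 1 sample. Values for JUNB rest on 9 peaks.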
